A study of Homo sapiens with 2 samples.

Results

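The genes described here encode the chains of collagens and laminins, 2 classes of extracellular matrix protein, and the integrins, the cell surface receptors that bind them. They were chosen by symbol alone, as every gene whose name is COL, LAMA, LAMB, LAMC, ITGA or ITGB followed by its chain number or letters, and 83 of the 60448 genes in the deposited table match. These are 44 collagen, 12 laminin and 27 integrin names. One of the 27, ITGBL1, encodes an integrin beta like protein and not a receptor subunit, so it is counted under its name only.

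HepG2, a line from a human liver tumour with many hepatocyte features, was sequenced as polyadenylated RNA in 2 libraries. In one the cells had been given an siRNA against SPRTN, a protease of DNA-protein crosslink repair, and in the other a negative control siRNA; they are called SPRTN siRNA cells and control cells. Both cultures were grown in medium with 10% fetal bovine serum, both siRNAs were used at 40 nM in a reverse transfection with a mix left on for 24 h, and RNA was taken at 72 h. The comparison asks how SPRTN depletion changes gene expression, here for matrix and adhesion genes.

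Each group has 1 library, so no difference below has a replicate check and no p-value was computed. Reads assigned to genes numbered about 67100000 for SPRTN siRNA cells and 96400000 for control cells. Levels are FPKM (fragments per kilobase of transcript, scaled by depth), which correct for gene length and depth. Ratios carry an exact Clopper-Pearson 95% interval of the split of a gene's reads between the libraries, which covers counting error only. A gene is called measured at a mean FPKM of at least 1 over both libraries. SPRTN itself had 2.07 FPKM in SPRTN siRNA cells and 7.81 FPKM in control cells, from 249 and 1349 reads, or 26.5% of the control level.

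Collagens are triple helices of 3 alpha chains, and laminins are heterotrimers of 1 alpha, 1 beta and 1 gamma chain that polymerise on the cell surface as the core of basement membranes. Integrins are alpha-beta pairs: the alpha subunit largely sets which matrix protein is bound, and the beta tail connects to actin through adaptors such as talin. In liver, fibrillar collagens come mainly from stellate cells and fibroblasts, while hepatocytes face a sparse matrix and carry mostly beta1 integrins.

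Markers of an epithelial liver line were present. All 10 hepatocyte markers were measured, with ALB at 16436 FPKM in SPRTN siRNA cells and 9997 FPKM in control cells. Of the fibroblast and stellate cell list, 3 genes were measured (ACTA2, TAGLN and PDGFRB), its summed level was 50.2 FPKM in SPRTN siRNA cells and 47.5 FPKM in control cells, and DCN and FAP were listed at 0 in both. Of 8 biliary and basal epithelial markers, KRT19, SOX9 and EPCAM were measured, TP63 and KRT5 were listed at 0, and the sum was 556 FPKM in SPRTN siRNA cells and 477 FPKM in control cells. In bulk RNA, fewer cells of a type and less RNA per cell cannot be told apart.

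An siRNA can lower other transcripts that pair with bases 2 to 8 of its guide strand, so the sequences of the siRNA against SPRTN are shown first, with U written as T and these bases in capitals.

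siRNA guide strand, bases 1 to 19: tTAACCAGaacttcctgac

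siRNA passenger strand, bases 1 to 19: gTCAGGAAgttctggttaa

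The guide's match in a transcript is CTGGTTA, or CTGGTTAA with a following A, and the passenger's match is TTCCTGA. All 83 genes had an annotated 3' UTR to search, and 8 of them hold a 7-base guide match in at least 1 annotated UTR: COL4A2, COL4A4, COL5A2, COL12A1, COL17A1, COL19A1, COL24A1 and ITGA10. Of these, COL4A2, COL12A1 and COL19A1 hold the 8-base form. The sites of the 4 genes with the most reads are printed with 8 flanking bases on each side and the match in capitals, from the GENCODE 29 transcripts (GRCh38).

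COL4A2 (chr13:110360638-110360644, plus strand): gacaccttCTGGTTAatctgatt

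COL24A1 (chr1:85729939-85729945, minus strand): tgtatgtaCTGGTTAcatcaaga

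COL5A2 (chr2:189032124-189032130, minus strand): cccctaaaCTGGTTAtattttga

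ITGA10 (chr1:145891734-145891740, minus strand): gctcagcaCTGGTTAtgtagcac

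Guide matches in a 3' UTR were counted among the measured members. COL4A2 was the 1 measured member that holds one there, in 1 of its 8 annotated UTRs. This is 3.12% of 32 measured members against 10.5% of 11134 measured genes with a UTR. A share that rests on 1 gene is a description, and it was not adjusted for the length of the UTR. The site in COL4A2, at 110360638, lies well before the end of the gene at 110513209. Whether the reads of COL4A2 come from a transcript with the site was not tested. Over all genes the median log2 difference was -0.33 for 384 genes with the 8-base match, -0.20 for 780 with the 7-base match only and -0.05 for 9970 with neither. COL4A2 had a log2 difference of -0.01 (0.026 when scaled by the median of ratios), and the 31 measured members without a guide match in a UTR had a median of 0.13. In the coding sequence, a 7-base guide match was present in 7 measured members, namely LAMA5, LAMB1, ITGA6, COL4A6, ITGA2, COL4A5 and COL27A1. These are 21.9% of the 32, with a median of -0.12, against 6.44% of the 11134 genes, with a median of -0.22. The shares were not adjusted for the length of the coding sequence, and a longer sequence has more places for a match. LAMA5, LAMB1, ITGA6 and COL4A6 were lower in SPRTN siRNA cells and COL27A1 higher, and the part of the match in these differences was not tested. COL18A1 and ITGAV, which were also lower, hold no guide match in an annotated 3' UTR or coding sequence. The passenger match was present in 5 measured members (COL26A1, COL4A2, COL9A2, ITGA2 and ITGA5), whose median was 0.16, against -0.11 for the 22.5% of all genes that hold it. COL24A1 and COL5A2, which hold the 7-base guide match, were higher in SPRTN siRNA cells, as described with the low genes.

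HepG2 cells expressed a restricted set of these genes. Of the 83, 32 were measured: 13 collagens, 5 laminins and 14 integrins. Another 44 lay under a mean of 1 FPKM with a value above 0, and 7 were listed at 0 in both libraries (COL3A1, COL6A5, COL8A1, COL19A1, COL22A1, ITGA4 and ITGA8). Of the measured genes, ITGA5, ITGAL and ITGA2B passed through SPRTN siRNA cells alone, being under 1 FPKM in control cells, and ITGA3 passed through control cells alone. Just inside the limit were ITGA2B, ITGA5 and COL4A2, with means of 1.02, 1.06 and 1.12 FPKM. Just outside were COL6A2, LAMC3 and ITGA10, with means of 0.859, 0.843 and 0.695 FPKM.

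**Figure D1:**
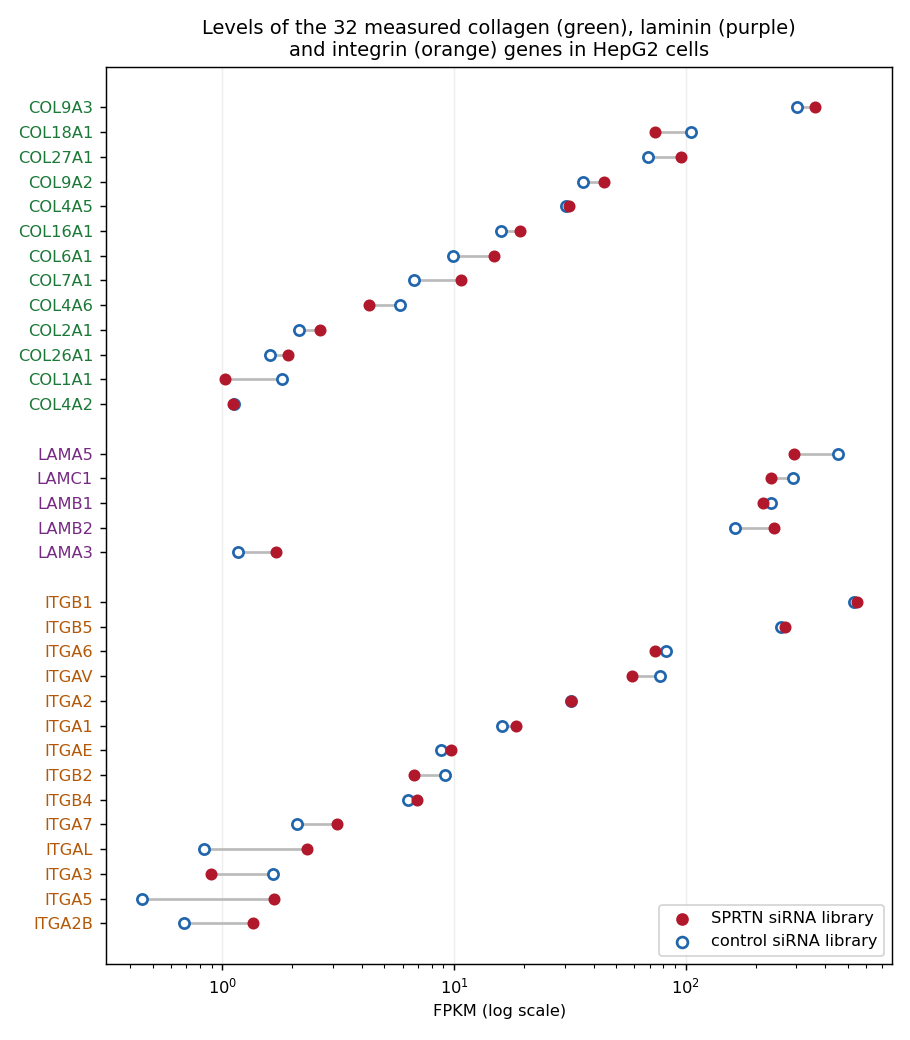
FPKM (log axis) of the 32 measured genes in the SPRTN siRNA library (filled) and the control siRNA library (open), with collagens at the top, laminins in the middle and integrins at the bottom. ITGB1, LAMA5 and COL9A3 are the highest of their families, and LAMB2 lies to the right of LAMB1 in SPRTN siRNA cells but to its left in control cells.

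None of the measured genes differed 2-fold on the log2(FPKM + 1) scale. This is 0 of 32 higher, against 1.51% of all 13203 measured genes, and 0 of 32 lower, against 0.788%. At 1.5-fold, 3 of 32 were higher (COL7A1, ITGA5 and ITGAL), or 9.38% against 5.04% of all measured genes. LAMA5 was the 1 gene 1.5-fold lower, or 3.12% against 5.62%, and it fell short of 1.5-fold when the scaling was by the median of ratios. By plain ratio, without the added 1, ITGA5 and ITGAL passed 2-fold. Each family had genes on both sides of 0.

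Counting error was small for most of them. The interval of the ratio lay above 1 for 19 of 32 genes (59.4%, against 31.5% of 13102 genes of known length) and below 1 for 10 (31.2%, against 44.3%). COL4A2, COL4A5 and ITGA2 were the 3 whose interval held 1. The median log2 difference of the 32 was 0.12, beside -0.05 over all measured genes. It was 0.047 at a mean of at least 5 FPKM and 0.045 without a filter, beside 0.0081 over all genes without one. At the usual filter, 25 of 32 (78.1%) lay within 0.5 of 0, beside 84.3% of all. By family the medians were 0.22 for collagens, -0.12 for laminins (0.080 without the filter on low values) and 0.08 for integrins. Summed levels differed in the same sense for collagens, with 668 FPKM in SPRTN siRNA cells and 590 FPKM in control cells, and for laminins, with 986 FPKM in SPRTN siRNA cells and 1142 FPKM in control cells. Integrins summed to 1030 FPKM in SPRTN siRNA cells and 1028 FPKM in control cells.

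**Figure D2:**
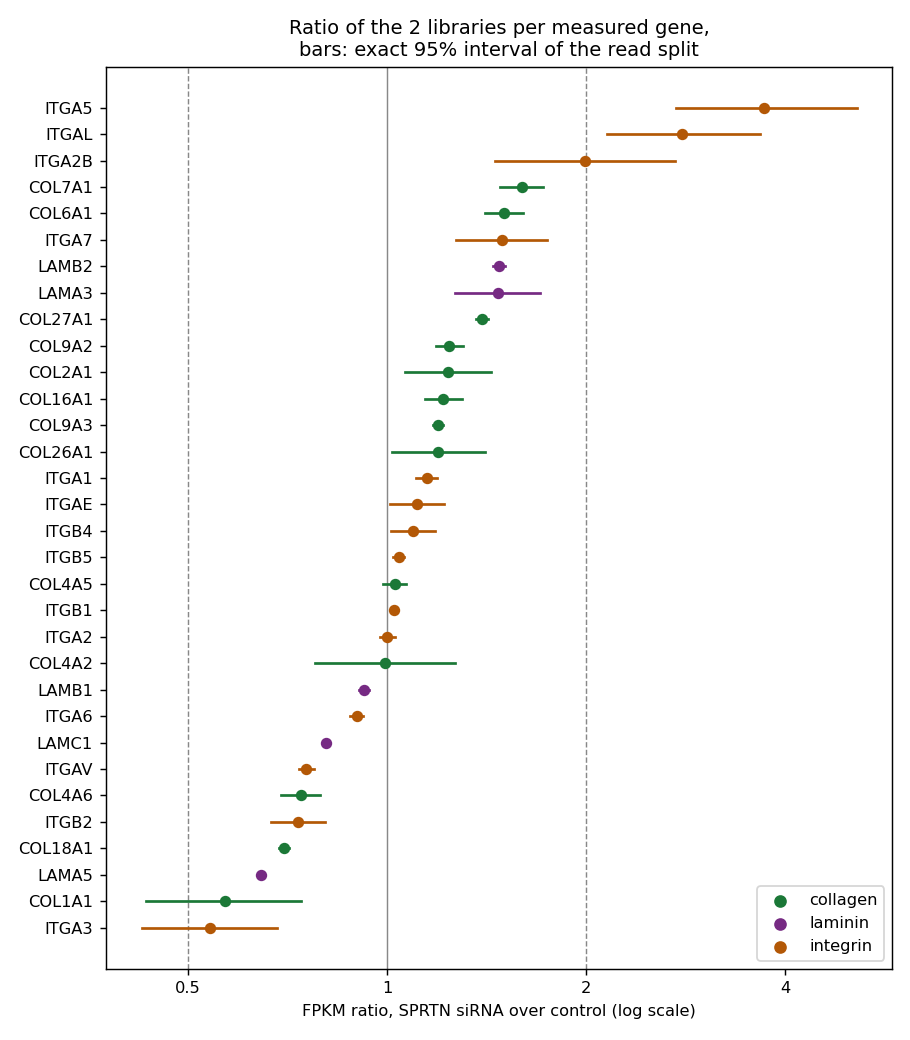
Ratio of FPKM in SPRTN siRNA cells over that in control cells (log axis) for the 32 measured genes, coloured by family, with exact 95% intervals of the read split and dashed lines at 2-fold. ITGA5 (3.72), ITGAL (2.79) and ITGA2B (1.99) are at the top on few reads with wide intervals, and LAMA5 and COL18A1 are among the lowest with narrow ones.

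Laminins had the highest summed level of the matrix chains, and LAMA5 and LAMB2 differed in opposite directions between the libraries. LAMA5, the alpha chain of the main basement membrane laminins of adult epithelia, had 292 FPKM in SPRTN siRNA cells and 454 FPKM in control cells, from 32177 and 71801 reads. It was thus 1.55-fold lower (95% interval 1.53 to 1.57; log2 difference -0.63). The gene lies on chromosome 20 from 62307955 to 62367312, on the minus strand.

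LAMC1, the gamma chain shared by most laminins, had 234 FPKM in SPRTN siRNA cells and 289 FPKM in control cells, 1.24-fold lower (1.22 to 1.25; -0.31). LAMB1 had 215 FPKM in SPRTN siRNA cells and 233 FPKM in control cells, 1.08-fold lower (1.07 to 1.10; -0.12). The other abundant beta chain went the opposite way: LAMB2, which can take the place of LAMB1 in the same trimers, had 240 FPKM in SPRTN siRNA cells and 163 FPKM in control cells, 1.48-fold higher (1.45 to 1.51; 0.56).

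The order of the beta chains by FPKM thus differed. LAMB2 stood at 1.11 times LAMB1 (1.09 to 1.14) in SPRTN siRNA cells and at 0.696 times LAMB1 (0.684 to 0.709) in control cells. LAMA5 stood at 1.25 times LAMC1 (1.23 to 1.27) in SPRTN siRNA cells and at 1.57 times (1.55 to 1.59) in control cells. These ratios compare chains within a library, so a common scaling factor cancels. They still depend on the length taken for each gene, which the intervals leave out. In reads, LAMB2 was below LAMB1 in both libraries, with 18394 and 23536 in SPRTN siRNA cells. In control cells the reads were 17921 and 36680.

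LAMA3, an alpha chain of stratified epithelia, was just above the limit, with 1.71 FPKM in SPRTN siRNA cells and 1.16 FPKM in control cells. Its partner LAMB3 was under 1 FPKM in both. The other alpha chains were low: LAMA1 and LAMA2 had 66 and 39 reads in SPRTN siRNA cells and 18 and 15 in control cells, and LAMA4 had 1 read in SPRTN siRNA cells and 0 in control cells. LAMB4 had 2 reads in SPRTN siRNA cells and 3 in control cells. LAMA5, LAMB1, LAMB2 and LAMC1 were therefore the 4 laminin chains above 2 FPKM.

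**Figure D3:**
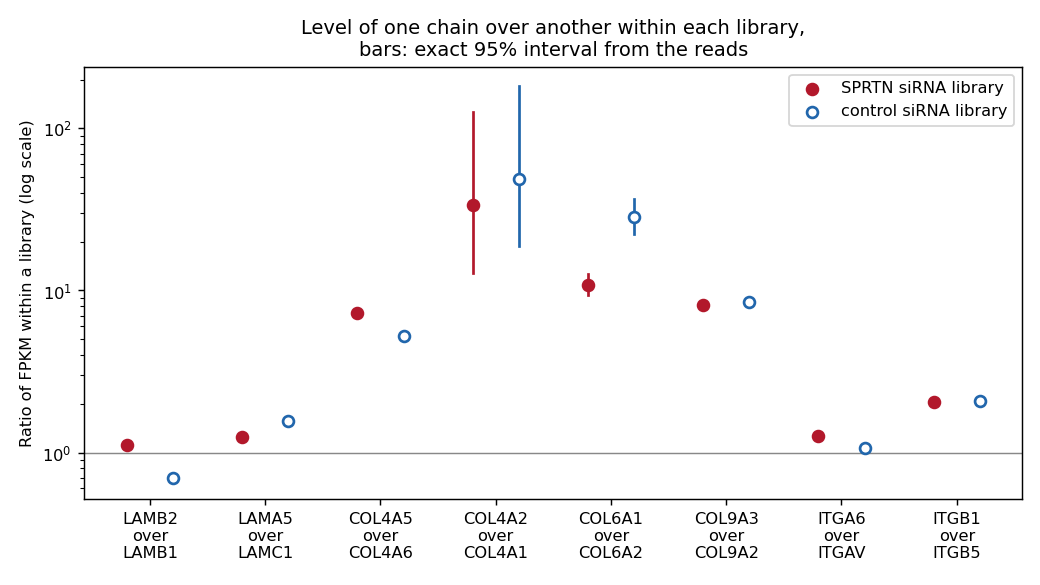
Ratio of FPKM of 1 chain over another (log axis) within the SPRTN siRNA library (filled, left of each pair) and the control siRNA library (open, right), with exact 95% intervals from the reads; most intervals are smaller than the points. LAMB2 over LAMB1 crosses 1 between the libraries in FPKM but not in reads. COL6A1 over COL6A2 is 10.9 in SPRTN siRNA cells and 28.5 in control cells.

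Among the 4 measured basement membrane collagens, COL18A1 and COL4A6 were lower in SPRTN siRNA cells. COL18A1 encodes the chain from which endostatin is cut, a heparan sulfate proteoglycan that hepatocytes make, and it had 73.9 FPKM in SPRTN siRNA cells and 106 FPKM in control cells, from 17891 and 36817 reads. It was 1.43-fold lower (1.41 to 1.46; -0.51). COL18A1 (chr21:45405137-45513720, plus strand) overlaps SLC19A1 on the other strand, which had 66.1 FPKM in SPRTN siRNA cells and 60.2 FPKM in control cells.

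The type IV chains, which form the network of every basement membrane, are encoded in 3 head-to-head pairs whose RefSeq starts (GRCh38.p14) are 127 bases apart for COL4A1 and COL4A2, 419 for COL4A3 and COL4A4 and 380 for COL4A5 and COL4A6. In most tissues the first pair, which makes the widespread chains, is the abundant one. Here the X-linked pair dominated. COL4A5 had 31.3 FPKM in SPRTN siRNA cells and 30.5 FPKM in control cells, a ratio of 1.03 (0.987 to 1.07), and COL4A6 had 4.31 FPKM in SPRTN siRNA cells and 5.83 FPKM in control cells, 1.35-fold lower (1.26 to 1.45; -0.36). COL4A5 exceeded COL4A6 by 7.26-fold (6.83 to 7.73) in SPRTN siRNA cells and 5.24-fold (5.0 to 5.49) in control cells, so the members of a pair did not keep one ratio.

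COL4A2 was listed at 1.11 FPKM in SPRTN siRNA cells and 1.12 FPKM in control cells, from 116 and 168 reads (ratio 0.993, 0.777 to 1.27). Its partner COL4A1, which overlaps it on the opposite strand, had 4 reads in each library, so COL4A2 exceeded it by 33.8-fold (12.9 to 126) in SPRTN siRNA cells and 49.0-fold (18.8 to 182) in control cells. COL4A3 had 29 reads in SPRTN siRNA cells and 25 in control cells, and COL4A4 had 1 in SPRTN siRNA cells and 3 in control cells. COL15A1, a relative of COL18A1, had 0 reads in SPRTN siRNA cells and 1 in control cells.

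The stretch between the starts of COL4A1 and COL4A2 is shown because the genes on its flanks had such unequal levels. It spans chr13:110307157-110307284 on the plus strand, with a GGGCGG box and a CCAAT box in capitals.

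COL4A1 to COL4A2: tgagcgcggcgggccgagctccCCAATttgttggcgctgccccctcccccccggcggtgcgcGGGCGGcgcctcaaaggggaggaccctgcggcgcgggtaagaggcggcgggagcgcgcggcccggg

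These 128 bases are 79.7% G or C and hold 1 GGGCGG, 1 CCAAT and no TATAAA when both strands are searched, and the motifs do not overlap. Of 35116 RefSeq promoter windows (250 bases before to 50 after a start), 44.95% hold GGGCGG, 34.61% CCAAT and 11.53% TATAAA. A match is a description of letters and does not show that a factor binds there.

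By FPKM, the type IX collagen chains made up the largest share of collagen RNA, which depends on the length taken for each gene. COL9A3 had 24055 reads in SPRTN siRNA cells and 28949 in control cells. COL18A1 had 17891 reads in SPRTN siRNA cells and 36817 in control cells. Type IX is a fibril-associated collagen best known from cartilage, where it decorates type II fibrils. COL9A3 had 362 FPKM in SPRTN siRNA cells and 303 FPKM in control cells, 1.19-fold higher (1.17 to 1.22; 0.26), and COL9A2 had 44.5 FPKM in SPRTN siRNA cells and 35.9 FPKM in control cells, 1.24-fold higher (1.18 to 1.30; 0.30). COL9A1, the third chain, had 5 reads in SPRTN siRNA cells and 2 in control cells. The ratio of COL9A3 to COL9A2 was 8.14 (7.84 to 8.44) in SPRTN siRNA cells and 8.45 (8.17 to 8.75) in control cells, so these chains differed between libraries by about the same factor. COL16A1, another fibril-associated collagen, had 19.3 FPKM in SPRTN siRNA cells and 15.9 FPKM in control cells, 1.22-fold higher (1.14 to 1.30; 0.27).

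COL27A1 was the leading fibrillar collagen. It is a fibril-forming chain known from cartilage, on chromosome 9 from 114155560 to 114312511, and it had 95.3 FPKM in SPRTN siRNA cells and 68.5 FPKM in control cells. From 18825 reads in SPRTN siRNA cells and 19450 in control cells it was 1.39-fold higher (1.36 to 1.42; 0.47). COL2A1, the main cartilage collagen, had 2.64 FPKM in SPRTN siRNA cells and 2.13 FPKM in control cells, 1.24-fold higher from 332 and 386 reads, with a log2 difference of 0.22.

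Type I and III collagens, the bulk of fibrotic liver matrix, were nearly missing from both libraries. COL1A1 had 1.02 FPKM in SPRTN siRNA cells and 1.80 FPKM in control cells, from 79 and 200 reads, 1.76-fold lower by plain ratio (1.35 to 2.31; log2 difference -0.47). COL1A2, which pairs with it in type I collagen, had 0 reads in SPRTN siRNA cells and 1 in control cells, and COL3A1 had none in either. For COL3A1 a count of 0 allows up to 3 reads in a library.

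COL7A1 and COL6A1 were the measured collagens with the largest positive differences. COL7A1, the anchoring fibril collagen, had 10.7 FPKM in SPRTN siRNA cells and 6.70 FPKM in control cells, 1.60-fold higher (1.48 to 1.72; 0.60), from 1453 and 1309 reads. COL6A1, a chain of the beaded filaments around cells, had 14.9 FPKM in SPRTN siRNA cells and 9.93 FPKM in control cells, 1.5-fold higher (1.40 to 1.60; 0.54). Its partner COL6A2 had 1.37 FPKM in SPRTN siRNA cells and 0.348 FPKM in control cells, 3.93-fold higher (2.96 to 5.27) from 186 and 68 reads. The excess of COL6A1 over COL6A2 was accordingly 10.9-fold (9.35 to 12.7) in SPRTN siRNA cells and 28.5-fold (22.4 to 36.9) in control cells. COL26A1 had 1.92 FPKM in SPRTN siRNA cells and 1.61 FPKM in control cells, 1.19-fold higher (1.02 to 1.40; 0.16). All 4 transmembrane collagens were under 1 FPKM in both libraries.

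Integrin beta subunits barely differed where they were abundant. ITGB1, the common partner of collagen and laminin receptors, had 546 FPKM in SPRTN siRNA cells and 533 FPKM in control cells, a ratio of 1.03 (1.01 to 1.04). ITGB5, the partner of the vitronectin receptor, had 267 FPKM in SPRTN siRNA cells and 257 FPKM in control cells, a ratio of 1.04 (1.02 to 1.06). ITGB1 stood at 2.04 times ITGB5 (2.01 to 2.08) in SPRTN siRNA cells and at 2.08 times (2.05 to 2.11) in control cells.

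The lower beta subunits went in both directions. ITGB4, the laminin receptor subunit of hemidesmosomes, had 6.89 FPKM in SPRTN siRNA cells and 6.31 FPKM in control cells, a ratio of 1.09 (1.01 to 1.18). ITGB2, the leukocyte beta subunit, had 6.68 FPKM in SPRTN siRNA cells and 9.11 FPKM in control cells, 1.36-fold lower (1.24 to 1.5; -0.40). ITGB3, ITGB6, ITGB7 and ITGB8 had at most 13 reads in SPRTN siRNA cells and 9 in control cells.

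The most abundant alpha subunits, ITGA6 and ITGAV, were lower in SPRTN siRNA cells. ITGAV, the RGD-binding subunit for vitronectin and latent TGF-beta, had 58.3 FPKM in SPRTN siRNA cells and 77.2 FPKM in control cells, 1.32-fold lower (1.29 to 1.36; -0.40) from 9750 and 18567 reads. Its partner ITGB5 was not lower, so ITGAV stood at 0.218 times ITGB5 (0.213 to 0.224) in SPRTN siRNA cells and at 0.301 times (0.295 to 0.306) in control cells. ITGA6, a laminin-binding subunit, had 73.7 FPKM in SPRTN siRNA cells and 82.0 FPKM in control cells, 1.11-fold lower (1.09 to 1.14; -0.15). ITGA6 stood at 1.26 times ITGAV (1.23 to 1.30) in SPRTN siRNA cells and at 1.06 times (1.04 to 1.08) in control cells.

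The collagen receptor ITGA2 had 32.1 FPKM in each library, with a ratio of 1.00 (0.974 to 1.03). ITGA1, the other collagen-binding subunit that was measured and one found on hepatocytes, had 18.4 FPKM in SPRTN siRNA cells and 16.1 FPKM in control cells, 1.15-fold higher (1.10 to 1.19; 0.19). The gene PELO overlaps ITGA1 on the same strand, at 13.1 FPKM in SPRTN siRNA cells and 13.5 FPKM in control cells.

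Alpha subunits with the largest ratios were all low. ITGA5, the fibronectin receptor subunit, had 1.67 FPKM in SPRTN siRNA cells and 0.448 FPKM in control cells, from 150 and 58 reads, 3.72-fold higher (2.73 to 5.13) by plain ratio with a log2 difference of 0.88. ITGAL, the alpha subunit of the leukocyte receptor LFA-1, had 2.32 FPKM in SPRTN siRNA cells and 0.831 FPKM in control cells, from 171 and 88 reads, 2.79-fold higher (2.15 to 3.66; 0.86). The platelet subunit ITGA2B had 1.36 FPKM in SPRTN siRNA cells and 0.682 FPKM in control cells, from 101 and 73 reads, 1.99-fold higher (1.46 to 2.73; 0.49).

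Laminin-binding alpha subunits showed no common direction. ITGA7 had 3.11 FPKM in SPRTN siRNA cells and 2.09 FPKM in control cells, 1.49-fold higher (1.27 to 1.75; 0.41). ITGA3 had 0.897 FPKM in SPRTN siRNA cells and 1.66 FPKM in control cells, from 101 and 269 reads, 1.85-fold lower (1.47 to 2.35; -0.49). ITGAE, which pairs with ITGB7 on mucosal lymphocytes, had 9.74 FPKM in SPRTN siRNA cells and 8.80 FPKM in control cells, a ratio of 1.11 (1.01 to 1.22).

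Leukocyte and platelet markers were looked up beside ITGAL, ITGB2, ITGAE and ITGA2B. Only LYZ and CD14 of that list were measured, and PTPRC, PPBP, PF4 and GP9 were listed at 0 in both libraries. The summed level of the list was 1299 FPKM in SPRTN siRNA cells and 1372 FPKM in control cells. Nearly all of it was LYZ, with 1294 FPKM in SPRTN siRNA cells and 1368 FPKM in control cells. CD14 had 3.43 FPKM in SPRTN siRNA cells and 3.21 FPKM in control cells. PTPRC encodes the pan-leukocyte surface phosphatase, and PPBP, PF4 and GP9 mark platelets.

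Of the 51 genes under a mean of 1 FPKM, the 44 with any value were higher in SPRTN siRNA cells in 30 cases and lower in 14. That is 68.2% higher, near the 65.8% of 4996 protein-coding genes and the 59.6% of all 16920 genes in the same range. The 51 summed to 8.50 FPKM in SPRTN siRNA cells and 3.57 FPKM in control cells, a small part of the 2684 FPKM in SPRTN siRNA cells and 2760 FPKM in control cells of all 83. With at least 20 reads in 1 library there were 17. Of these, 13 were 2-fold higher by plain ratio and 0 were 2-fold lower. The same filter gave 24.0% higher and 10.6% lower among all genes, and 29.5% higher and 8.13% lower among protein-coding genes. A gene that passes such a filter through the library in which it is high had to differ, so the count is a description. With at least 40 reads over both libraries, it was 8 of 12. The remaining 34 of the 51 had fewer than 20 reads in each library.

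**Figure D4:**
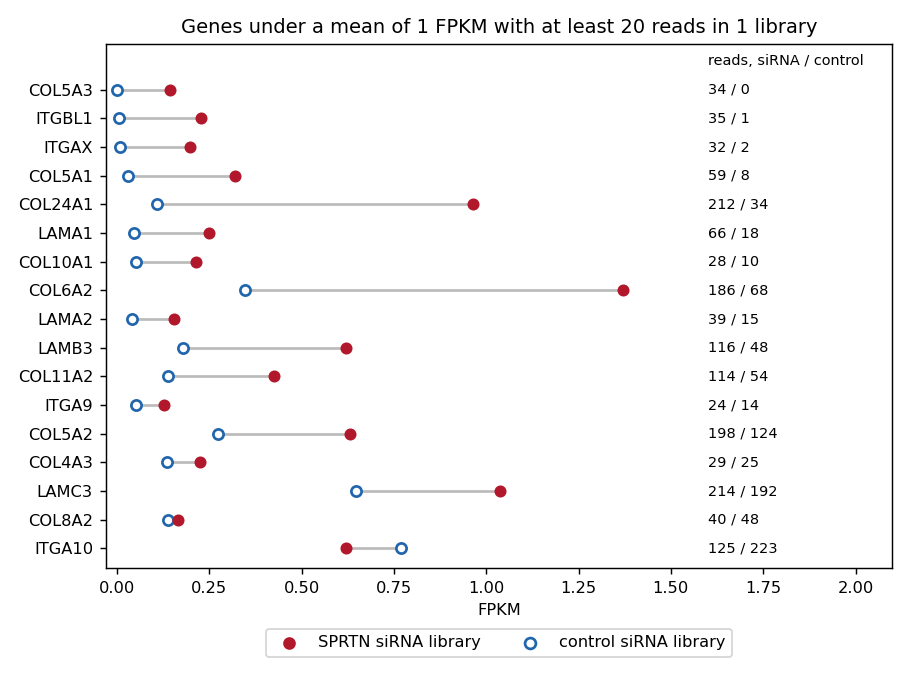
FPKM of the 17 genes under a mean of 1 FPKM with at least 20 reads in 1 library, in the SPRTN siRNA library (filled) and the control siRNA library (open), with the reads of each at the right. In 16 of the 17 the filled point lies to the right, and ITGA10 is the exception. A gene with at least 20 reads in the SPRTN siRNA library alone had to lie that way, so the count is a description.

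Of the 13 genes that were 2-fold higher, 5 are fibrillar collagens. COL24A1, a fibrillar chain described in mouse bone and cornea, had 0.964 FPKM in SPRTN siRNA cells and 0.108 FPKM in control cells, from 212 and 34 reads, 8.96-fold higher (6.22 to 13.3). COL5A1, the chain that starts type I fibrils, had 0.319 FPKM in SPRTN siRNA cells and 0.030 FPKM in control cells, from 59 and 8 reads, 10.6-fold higher (5.04 to 25.7). Its partner COL5A2 had 198 reads in SPRTN siRNA cells and 124 in control cells, 2.30-fold higher (1.82 to 2.90).

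The third type V chain is COL5A3. COL5A1, COL5A3 and COL10A1 passed the read filter in SPRTN siRNA cells alone, so their direction followed from the filter. COL5A2 passed it in both libraries and was named for the size of its ratio. A shared direction of the type V chains was therefore not tested. COL5A3 had 34 reads in SPRTN siRNA cells and 0 in control cells, which is at least 16.3-fold higher against a floor of 3 reads in control cells when the 34 are taken as exact, and the lower 95% bound of the read split is 12.5-fold. COL11A2, a cartilage fibril chain, had 114 reads in SPRTN siRNA cells and 54 in control cells, 3.04-fold higher (2.18 to 4.28). COL10A1, the collagen of hypertrophic cartilage, had 28 reads in SPRTN siRNA cells and 10 in control cells, 4.03-fold higher (1.90 to 9.29).

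There were 4 low laminin chains with at least 20 reads in 1 library. LAMA1 and LAMA2 reached 20 reads in SPRTN siRNA cells alone, so their direction followed from the filter. LAMB3 and LAMC3 reached it in both libraries and were higher in SPRTN siRNA cells. LAMB3, a partner of LAMA3, had 0.622 FPKM in SPRTN siRNA cells and 0.179 FPKM in control cells, 3.47-fold higher (2.46 to 4.97). LAMA1, the embryonic alpha chain, was 5.27-fold higher (3.09 to 9.44), and LAMA2, the alpha chain of muscle laminin, was 3.74-fold higher (2.01 to 7.30). LAMC3 stayed under 2-fold, with 1.04 FPKM in SPRTN siRNA cells and 0.648 FPKM in control cells, 1.60-fold higher (1.31 to 1.96).

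Among low integrin names, ITGAX, a myeloid subunit, had 32 reads in SPRTN siRNA cells and 2 in control cells, a ratio of 23.0 with an interval of 5.87 to 198. ITGA9, a tenascin receptor subunit, had 24 reads in SPRTN siRNA cells and 14 in control cells, 2.46-fold higher (1.22 to 5.15). ITGBL1, the name that is no subunit, had 35 reads in SPRTN siRNA cells and 1 in control cells, a ratio of 50.3 with an interval of 8.46 to 2044. ITGA10 had 125 reads in SPRTN siRNA cells and 223 in control cells, a ratio of 0.806 (0.642 to 1.01). COL8A2, a network collagen of the cornea, had 40 reads in SPRTN siRNA cells and 48 in control cells, a ratio of 1.20 (0.767 to 1.86).

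Some other RNAs were higher alongside these low genes. Endothelial markers summed to 11.2 FPKM in SPRTN siRNA cells and 6.30 FPKM in control cells over a list of 10, of which 4 were measured (CDH5, LYVE1, PECAM1 and TIE1) and TEK, ERG and CLEC4G were at 0 in both. TIE1 went against the sum, with 1.07 FPKM in SPRTN siRNA cells and 1.84 FPKM in control cells. MALAT1, a nuclear long RNA, had 110 FPKM in SPRTN siRNA cells and 43.2 FPKM in control cells. Their part in the differences of the low genes was not tested.

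In the authors' deposited table, 68 of the 83 genes have a fold change and 19 are called as changed, 18 of them higher and 1 lower. In the authors' deposited table the share called higher is 26.5% of these genes and 9.20% of all 25035 genes with a fold change, and the share called lower is 1.47% of these and 3.32% of all. Of the 19 calls in the authors' deposited table, 17 fall on genes under a mean of 1 FPKM, and ITGA5 and ITGAL are the other two. The 1 lower call in the authors' deposited table is COL23A1, a transmembrane collagen with 0 reads in SPRTN siRNA cells and 7 in control cells. LAMA5, LAMB2 and COL18A1, which have the counts given above, are not called in the authors' deposited table. Their log2 fold changes in the authors' deposited table are -0.63, 0.56 and -0.52, all under 2-fold. Every called gene of the 83 is beyond 2-fold there, so the lack of a call does not show that these genes were equal between the libraries.

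Genes that build and act on these proteins were described from 6 lists with 102 measured genes in all, beside the 43.4% of all measured genes that lay above 0 and the 56.6% below. Collagen chains are hydroxylated, glycosylated, folded and trimmed before they form fibrils, and 20 of 26 measured genes of collagen modification were above 0 and 6 below, with a median log2 difference of 0.24. The largest were PCOLCE2, an enhancer of procollagen cleavage, with 2.60 FPKM in SPRTN siRNA cells and 0.914 FPKM in control cells (0.91), and ADAMTS2, the enzyme that removes procollagen N-propeptides, with 8.30 FPKM in SPRTN siRNA cells and 4.53 FPKM in control cells (0.75). CRTAP, part of the prolyl 3-hydroxylase complex, went the other way, with 21.1 FPKM in SPRTN siRNA cells and 34.3 FPKM in control cells (-0.67). SERPINH1, the collagen chaperone HSP47, chosen after its value was seen, had 210 FPKM in SPRTN siRNA cells and 139 FPKM in control cells (0.59).

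Matrix proteases and their inhibitors had the highest median of the 6 lists among measured genes. It was 0.46, but 0.077 without the filter on low values, below the 0.24 of the soluble ligands. Of 13 measured genes, 11 were above 0 and 2 below, and 3 were 2-fold higher, beside 1.51% of all measured genes. MMP3, which cleaves basement membrane proteins and proteoglycans, had 11.7 FPKM in SPRTN siRNA cells and 4.79 FPKM in control cells (1.13). MMP17, a membrane-anchored member of the same family, had 4.52 FPKM in SPRTN siRNA cells and 1.53 FPKM in control cells (1.12), and PLAU, the urokinase activator of plasminogen, had 4.33 FPKM in SPRTN siRNA cells and 1.56 FPKM in control cells (1.06).

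Basement membrane partners of the laminins had the lowest median among measured genes, at -0.32, with 2 of 10 above 0 and 8 below. Without the filter it was -0.035, above the -0.09 of the adaptors and kinases. HSPG2, the heparan sulfate proteoglycan perlecan, had 86.6 FPKM in SPRTN siRNA cells and 139 FPKM in control cells (-0.67), and NTN4, a netrin that binds laminin gamma chains, had 6.19 FPKM in SPRTN siRNA cells and 10.7 FPKM in control cells (-0.71). FREM1, a basement membrane protein of the Fraser complex, was 2-fold higher, with 69.9 FPKM in SPRTN siRNA cells and 32.3 FPKM in control cells (1.09).

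Soluble ligands of integrins had 10 of 13 measured genes above 0 and 3 below, with a median of 0.27. VTN, the vitronectin that ITGAV receptors bind, had 121 FPKM in SPRTN siRNA cells and 66.3 FPKM in control cells (0.85). The fibrinogen chains FGA and FGG had log2 differences of 0.82 and 0.54, and liver is their normal source. Adaptors and kinases of integrin adhesions were spread around 0, with 12 of 32 above and 20 below and a median of -0.09. KANK1, which binds talin (-0.51), ZYX, the actin-regulating zyxin (0.47), and LIMS2, a partner of the integrin-linked kinase (0.44), were the farthest from 0 among these 32. The other collagen and laminin receptors had 4 of 8 above 0 and 4 below, with a median of -0.03 (0.030 without the filter on low values and 0.034 when scaled by the median of ratios), and the farthest from 0 were the syndecans SDC1 (-0.47) and SDC3 (0.35) and the dystroglycan gene DAG1 (-0.24).

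**Figure D5:**
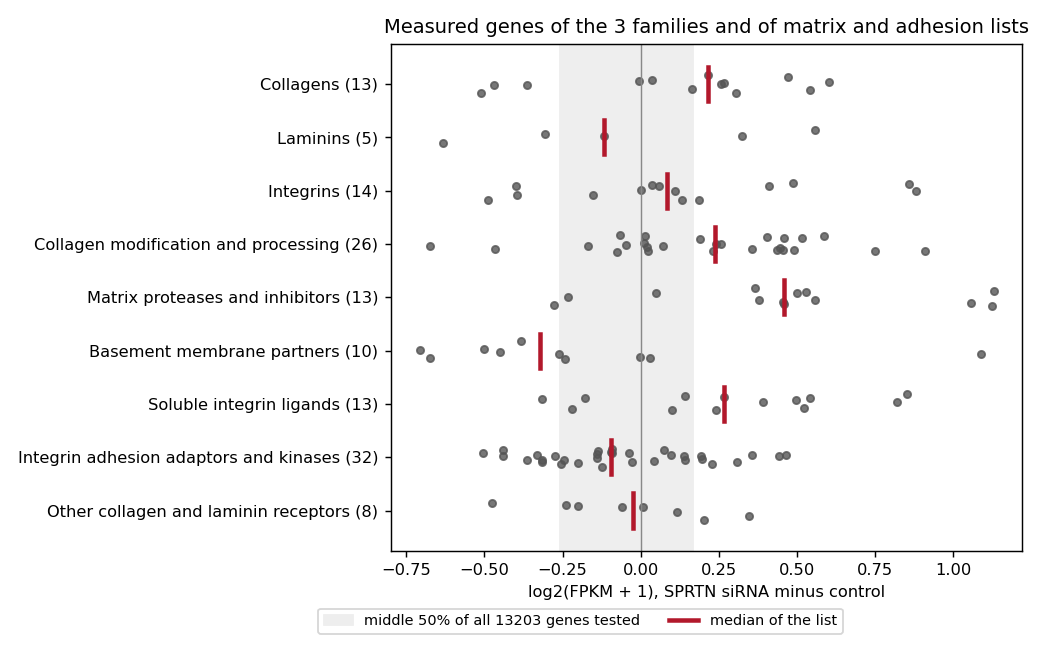
Difference in log2(FPKM + 1), SPRTN siRNA cells minus control cells, for each measured gene of the 3 families and the 6 lists, with the number of genes in brackets, the median as a red bar and the middle 50% of all 13203 measured genes shaded (-0.26 to 0.17). Among these measured genes the median is highest for matrix proteases and inhibitors (0.46) and lowest for basement membrane partners (-0.32), an order that changes without the filter on low values, and the points of each family lie on both sides of 0.

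Several members share their position with other expressed genes, and no source used here says whether the counting used strand, so their reads cannot be told apart. On the opposite strand of LAMA5 lies ADRM1, which had 100 FPKM in SPRTN siRNA cells and 91.4 FPKM in control cells. LAMB1 overlaps DLD, with 64.2 FPKM in SPRTN siRNA cells and 66.1 FPKM in control cells, and ITGB4 overlaps GALK1, with 51.5 FPKM in SPRTN siRNA cells and 50.8 FPKM in control cells. COL18A1 has, beside SLC19A1, the antisense gene COL18A1-AS2, listed at 0.216 FPKM in SPRTN siRNA cells and 0.507 FPKM in control cells. COL9A3 overlaps TCFL5, with 15.0 FPKM in SPRTN siRNA cells and 16.4 FPKM in control cells. ITGA7 overlaps METTL7B, with 14.7 FPKM in SPRTN siRNA cells and 12.1 FPKM in control cells, and BLOC1S1, with 2.35 FPKM in SPRTN siRNA cells and 4.16 FPKM in control cells. ITGAE overlaps GSG2, with 2.42 FPKM in SPRTN siRNA cells and 3.55 FPKM in control cells. The partners DLD, GALK1, TCFL5, METTL7B, BLOC1S1 and GSG2 also lie on the opposite strand.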

How the data were processed

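The authors deposited FPKM for 60448 genes, and the title of that table speaks of row means without saying what was averaged, so each column is treated as 1 sample, whatever was pooled in it. The column whose short name starts with si was taken as SPRTN siRNA cells and the remaining one as control cells. A second table holds length-scaled coverage, a signal the authors deposited without depth correction, and the authors' deposited log2 fold change, p-value and adjusted p-value, whose test no source used here names. Build GRCh38.p13 and edgeR, without its role, are named per the submitters' processing notes. Aligner, counter, annotation and strand setting: not given in the sources used here.

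Differences are log2(FPKM + 1), SPRTN siRNA cells minus control cells, at a mean FPKM of at least 1. Low genes change by less on this scale than by ratio, and every fold given beside 2 levels is their plain ratio. Adding 1 keeps ITGA5 and ITGAL under 2-fold on that scale. Reads were recovered from the deposited FPKM: the libraries stood in a ratio of whole reads for 65 of 65 members above 0 in both (relative tolerance 2e-13), and the mean transcript length in GENCODE 29 gave a whole number (within 0.05) for 49. For the other 16, among them COL9A3, COL4A5, COL4A2, COL4A1, COL5A2, LAMA1 and LAMA2, reads rest on the nearest whole multiple. The recovery, the intervals and the calls were run on simulated data that held counting error alone. Differences were put only into genes well above the limit of 1 FPKM. That run therefore does not show how intervals hold between cultures, or how calls behave for genes near or under 1 FPKM. With 1 library per group no test across libraries was possible.

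Members and lists were chosen with earlier results of these data known. The text names any measured member, with full values for the 12 of largest absolute difference, the 5 highest per family and the head-to-head pairs, low members with at least 20 reads in 1 library and a 2-fold ratio, and the 3 genes farthest from 0 of each list. Other low members are named to account for chains of one protein. One low member is not reported here by name but remains in all counts. No gene list received a test, so counts and medians stand beside those of all measured genes. The alternatives were other pseudocounts, filters and scaling, recovered reads, and leaving out members with a guide match or ITGBL1. Sequences come from the series' design text, RefSeq promoters (GRCh38.p14) and GENCODE 29 transcripts. Python 3.11.15, NumPy 2.4.6, SciPy 1.17.1, pandas 2.3.3 and Matplotlib 3.10.9 were used.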

Additional observations from a re-analysis of the deposited data

How the results depend on the processing

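The median of all measured genes was -0.05 and moved to 0.00 under scaling by the median of ratios and to 0.0081 without a filter. Over all genes 666 were 1.5-fold higher and 742 lower, against 812 and 584 under the median of ratios and 1000 and 873 without a filter. The share of higher genes among 2-fold calls over all genes was 65.7%, 75.5% under that scaling and 51.5% at a mean of at least 5 FPKM. Members 2-fold higher numbered 2 in place of 0 with a pseudocount of 0.1 and 2 with recovered reads. Members 1.5-fold higher numbered 5 in place of 3 without a filter, under the median of ratios and with recovered reads, and 1 at a mean of at least 5 FPKM. Members 1.5-fold lower numbered 3 in place of 1 with a pseudocount of 0.1 and with recovered reads, and 0 under the median of ratios. The collagen median of 0.22 was 0.046 without a filter. The laminin median of -0.12 reversed to 0.080 without a filter, and was -0.21 at a mean of at least 5 FPKM and -0.056 under the median of ratios. Over the 6 lists, 2-fold higher genes numbered 2 in place of 4 at a mean of at least 5 FPKM, and 1.5-fold higher genes 14 in place of 9 with a pseudocount of 0.1 and with recovered reads. The median of other collagen and laminin receptors, -0.03, was 0.030 without a filter and 0.034 under the median of ratios, and the difference of COL4A2, the 1 measured member with a guide match in a 3' UTR, was 0.026 under the median of ratios in place of -0.01. A mean of at least 5 FPKM left no member with a guide match in a 3' UTR. With at least 40 reads over both libraries, a setting chosen after seeing the data, 8 of 12 low members were 2-fold higher in place of 13 of 17, against 26.1% of protein-coding and 20.3% of all genes. The other member and list values kept their direction, though the member median of 0.12 was 0.047 at a mean of at least 5 FPKM and 0.045 without a filter, the protease median of 0.46 was 0.077 and that of basement membrane partners, -0.32, was -0.035 without a filter. The cause of each change was not tested, beyond the fewer or added genes of a filter. PCR copies of a molecule count as separate reads, so intervals and floors give counting error alone. No paired analysis was possible because each group has 1 library, and for the same reason no replicate could be left out.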
